A study of Mus musculus with 12 samples.

Results

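Heavy chain variable segments, the Ighv genes, were read in sorted mouse splenic B cells. Their usage differed widely between control marginal zone (MZ) and follicular (FO) cells, and no segment passed the main test between Zfp36l1-deficient and control MZ cells. Members are the genes whose symbol begins with Ighv and whose biotype is IG_V_gene, with at least 10 raw counts in at least 4 of the 12 libraries. By this rule 100 of the 113 Ighv segments in the count table were members, among 43629 genes. The table also held 60 Ighv pseudogenes, which are not members. Members were thus chosen by the raw counts of all 12 libraries, so their detection is not a result. Just inside the threshold were Ighv6-5 with 93 counts in all, Ighv1-62-3 with 113 and Ighv8-4 with 124, each with 10 counts in 4 libraries. Just outside were Ighv6-4 with 65 counts in all and Ighv8-9 with 37, each with 10 counts in 1 library. Of the 13 segments left out, 3 had no count. The members held at least 99.9% of the Ighv counts of every library.

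B cells were sorted from spleen, and each group held 4 libraries. The Zfp36l1-deficient MZ libraries (replicates 1, 2, 7 and 8) came from Zfp36l1fl/flERT2cre/+ mice and the control MZ libraries (replicates 3, 4, 5 and 6) from ERT2cre/ERT2cre mice. The FO libraries (replicates 3, 4, 7 and 8) came from Zfp36l1fl/fl cre- mice, and the strain of all 3 groups is given as Zfp36l1tm1.1Tnr. The floxed allele and the number of ERT2cre copies thus separate deficient from control MZ cells. ERT2cre is a Cre recombinase fused to an oestrogen receptor domain. Zfp36l1, an RNA-binding protein that promotes mRNA decay, and the heavy chain locus both lie on chromosome 12. Animals of unstated age and sex were used, with any induction of the recombinase not given in the sources used here. Both gates are labelled positive for B220 and CD93. MZ cells were taken as CD21-high and CD23-negative, and FO cells as positive for CD21 and CD23. Whether replicates are separate animals is unstated, so each p-value refers to the spread between libraries, which could be technical.

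Each developing B cell joins 1 variable (V), 1 diversity (D) and 1 joining (J) segment into the exon that encodes the antigen-binding part of its heavy chain. The set of V segments in a sorted population therefore records which rearranged cells it holds and how strongly each transcribes its heavy chain. In these bulk libraries fewer cells with a segment and less RNA per cell cannot be told apart. MZ B cells respond early to blood-borne antigens and are known for a receptor repertoire unlike that of the recirculating FO cells. In the mouse locus the large Ighv1 family fills the end far from the D and J segments, and Ighv2 and Ighv5 fill the near end.

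The members belong to 15 families and lie 0.15 to 2.57 Mb from the J segments, on the minus strand of chromosome 12 (build GRCm38, annotation GENCODE M21). None of the 100 overlaps another annotated gene. Annotated exons are 347 to 480 bases long. The nearest other segment was 74.9% to 99.2% identical (median 95.4%). In 69 members no 100-base stretch of exon recurs in another Ighv gene or pseudogene. For the other 31 the counts are uncertain, because reads can match several copies, with the authors' treatment of them not given in the sources used here. Among these members are Ighv1-26 (92.06% of stretches unique), Ighv1-53 (97.62%), Ighv1-55 (93.99%) and Ighv8-8 (90.73%). Ighv1-7 (83.39%), Ighv11-2 (82.6%), Ighv1-4 (80.95%) and Ighv2-2 (75.89%) also belong to them.

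Sequences of the segments that lead the results are shown in pairs, each with another member of its family, to show how far such members differ. Each run covers 200 bases of annotated V exon from the GENCODE M21 transcripts, read 5′ to 3′ on the coding strand. Within a pair, capitals mark the bases that differ. Ighv1-26, the segment with the largest share in FO cells, and Ighv1-53, with a larger share in MZ cells, differ at 31 positions (84.5% identity). Ighv1-26 spans chr12:114788477-114788676 and Ighv1-53 chr12:115158508-115158707.
Ighv1-26: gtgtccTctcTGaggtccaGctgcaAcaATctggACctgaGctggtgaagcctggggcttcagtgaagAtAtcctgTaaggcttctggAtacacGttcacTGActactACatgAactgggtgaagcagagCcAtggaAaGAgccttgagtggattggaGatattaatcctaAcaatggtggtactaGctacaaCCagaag
Ighv1-53: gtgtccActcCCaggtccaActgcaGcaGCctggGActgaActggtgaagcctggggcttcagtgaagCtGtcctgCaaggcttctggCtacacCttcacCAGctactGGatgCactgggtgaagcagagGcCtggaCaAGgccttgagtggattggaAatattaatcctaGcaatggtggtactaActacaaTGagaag

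Ighv6-3, the segment with the largest share in MZ cells, and Ighv6-6 of the same family differ at 18 positions (91.0% identity). The runs span chr12:114391822-114392021 for Ighv6-3 and chr12:114434899-114435098 for Ighv6-6.
Ighv6-3: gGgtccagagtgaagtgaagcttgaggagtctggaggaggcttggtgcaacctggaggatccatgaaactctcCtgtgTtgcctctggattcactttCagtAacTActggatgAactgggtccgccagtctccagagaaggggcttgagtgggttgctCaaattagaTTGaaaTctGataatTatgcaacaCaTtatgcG
Ighv6-6: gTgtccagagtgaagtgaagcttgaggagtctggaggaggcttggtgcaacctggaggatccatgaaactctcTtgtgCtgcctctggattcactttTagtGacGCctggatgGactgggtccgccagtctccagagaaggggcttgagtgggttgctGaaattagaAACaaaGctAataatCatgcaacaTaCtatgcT

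Ighv10-1 and Ighv10-3, the Ighv10 segments of biotype IG_V_gene, differ at 7 positions (96.5% identity). The runs span chr12:114479118-114479317 for Ighv10-1 and chr12:114523554-114523753 for Ighv10-3, and both segments took larger shares in MZ cells.
Ighv10-1: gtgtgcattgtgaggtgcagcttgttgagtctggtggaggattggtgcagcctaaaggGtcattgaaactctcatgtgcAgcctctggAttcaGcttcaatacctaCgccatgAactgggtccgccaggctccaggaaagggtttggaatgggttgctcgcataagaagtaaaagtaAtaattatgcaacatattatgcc
Ighv10-3: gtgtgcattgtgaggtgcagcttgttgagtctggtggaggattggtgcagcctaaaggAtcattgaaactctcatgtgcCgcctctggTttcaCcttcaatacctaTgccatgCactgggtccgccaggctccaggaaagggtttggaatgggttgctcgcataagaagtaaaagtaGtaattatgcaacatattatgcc

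Library depth was 28938453 to 40664963 counts, of which 30926 to 69258 fell on Ighv segments. Zfp36l1 stood at 22.5 to 40.5 CPM (counts scaled to a fixed library total) in deficient MZ, 121 to 137 in control MZ and 307 to 337 in FO libraries. All 7 MZ marker genes tested were higher in control MZ than in FO cells, and all 6 FO markers were lower. Of all genes, 42.6% were higher and 38.7% lower in that comparison. Markers of other cells were low: the summed level of 9 T cell genes was at most 5.93 CPM and that of 8 macrophage genes at most 33.8 CPM in any library. Of the 8 macrophage genes 6 were higher in control MZ than in FO and 1 lower, beside those shares of all genes. In deficient against control MZ, where 3.76% of all genes were called, Cd8a, Tcf7 and Adgre1 were higher. The part of such cells in any segment value was not tested. The series' design text gives a Clontech SMARTer kit, 5 ng of RNA and paired reads of 100 bp for MZ libraries. For FO libraries it gives a stranded TruSeq kit and single reads, although the extraction protocol lists SMARTer for every sample. Cell type, kit, read layout, floxed allele and cre genotype differ together between control MZ and FO libraries and cannot be told apart in any value below that sets MZ against FO.

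The total over all segments was first compared. Ighv segments took 0.103 ± 0.0076% of library counts in control MZ (mean ± SD, n = 4), 0.104 ± 0.0036% in deficient MZ and 0.174 ± 0.0083% in FO cells. The 2 MZ groups overlapped, and every FO library (0.165% to 0.184%) lay above every MZ library (0.0960% to 0.112%). Per 100 counts of Ighm and Ighd, the constant regions of IgM and IgD, the libraries held 10.2 ± 0.48 Ighv counts in control MZ, 10.3 ± 0.10 in deficient MZ and 19.8 ± 0.79 in FO cells. Ighm was 0.931 ± 0.097% of counts in control MZ and 0.507 ± 0.011% in FO, while Ighd was 0.0852 ± 0.013% and 0.376 ± 0.0058%. The constant region that is typical of MZ cells and the one typical of FO cells thus moved in opposite directions, and the V segments were lower in MZ cells relative to their sum.

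Because of this difference in the total, 2 tests were run for each segment. The first asks about level, with counts scaled by library (edgeR, quasi-likelihood). The second asks about usage: it is the same fit over all genes, with the Ighv rows scaled by each library's Ighv total. A segment was called where the p-value adjusted over all genes tested was under 0.05. Shares are percentages of a library's Ighv counts. Since exons differ little in length, the 12 segments with the largest shares were also the 12 with the largest shares per exon base.

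**Figure D1:**
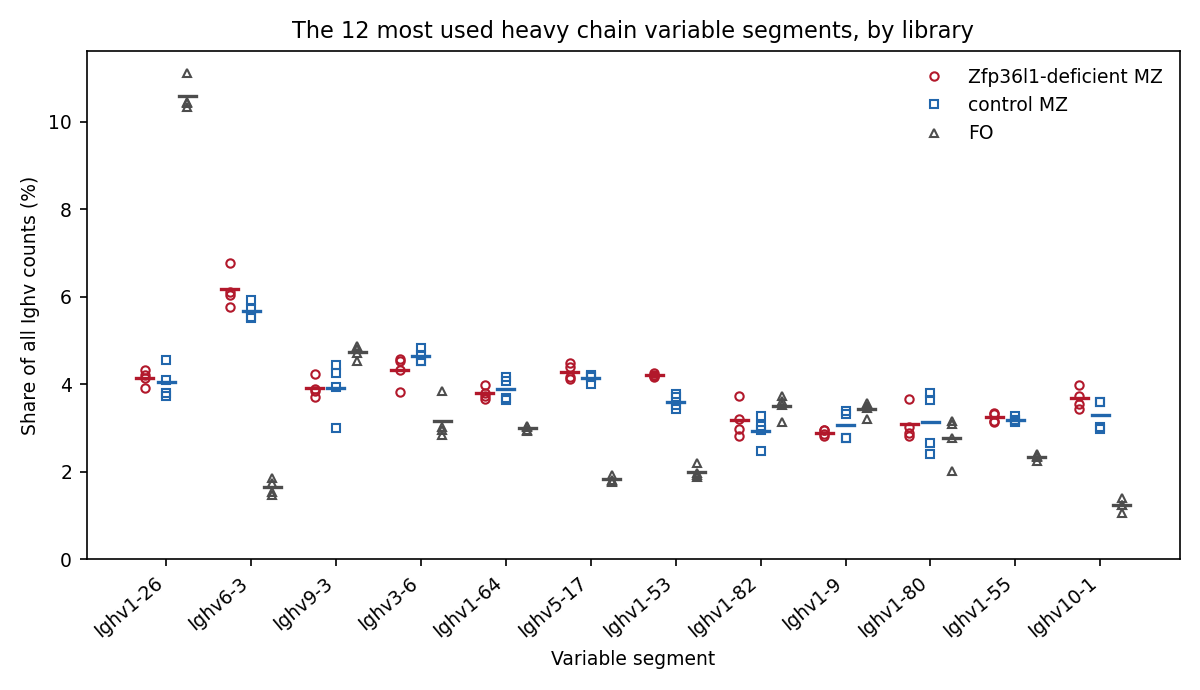
Share of all Ighv counts (%, y axis) of the 12 segments with the largest mean share (x axis), with 1 point per library, 4 libraries per group, and a bar at each group mean. Ighv1-26 stands at 10.3% to 11.1% in FO and 3.72% to 4.55% in the MZ libraries, and Ighv6-3 at 1.47% to 1.85% in FO and 5.51% to 6.77% in MZ.

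Usage in deficient and control MZ cells was compared next, which asks whether loss of Zfp36l1 goes with another repertoire. None of the 94 members tested was called in level or in usage (0 and 0), against 3.76% of all 13987 genes called in level and 3.75% in that usage fit. At an unadjusted p under 0.05 there were 4 members in level and 6 in usage. The median log2 difference of the members, deficient over control, was -0.03 in level and -0.06 in usage. Of the 34 segments with a share of at least 1%, all 34 had a usage difference under 0.3 in absolute log2, and 17 were under 0.1. The range was -0.25 to 0.22 and the median standard error (SE) over all members 0.15, so small differences would not be detectable. The 6 members that were not tested (Ighv8-6, Ighv1-56, Ighv11-1, Ighv8-4, Ighv1-62-3 and Ighv6-5) had too few counts in these 8 libraries.

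Ighv1-53 had the smallest adjusted p. It took 4.16%, 4.25%, 4.19% and 4.22% of Ighv counts in deficient replicates 1, 2, 7 and 8, and 3.51%, 3.78%, 3.69% and 3.43% in control replicates 3, 4, 5 and 6. All 4 deficient libraries lay above all 4 control libraries, and the usage difference was 0.22 (log2, SE 0.07, edgeR adjusted p = 0.096). The level difference was 0.25 (SE 0.08, adjusted p = 0.101). With DESeq2 it passed the threshold (log2 0.26), as it did in the authors' deposited table, where the log2 fold change was 0.24 and the adjusted p 0.0438. It was 1 of 91 members with an adjusted p there to pass. Without control replicate 5 edgeR also called its level (log2 0.32).

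The groups' shares did not overlap for 4 of the 100 members. How many of all genes had no overlap was not computed, so this count is not a result about the members. The 4 members were Ighv1-53, Ighv1-72 and Ighv13-2, which were higher in the deficient libraries, and Ighv5-9-1, which was lower. Ighv1-72, known as the main segment of the antibody response to the hapten nitrophenyl in mice of the Igh-b haplotype, took 1.23 ± 0.042% in deficient and 1.14 ± 0.019% in control MZ cells. Its usage difference did not pass (0.12, SE 0.10, adjusted p = 0.558). Ighv13-2, named only after its values were seen, took 0.483 ± 0.033% and 0.418 ± 0.042% (adjusted p = 0.483), and Ighv5-9-1, likewise, 0.873 ± 0.051% and 1.04 ± 0.057% (adjusted p = 0.226). In level, Ighv1-5 had a larger difference than Ighv1-53 (log2 0.77, SE 0.29, adjusted p = 0.167). Its shares were 0.447%, 0.165%, 0.275% and 0.388% in deficient libraries and 0.249%, 0.203%, 0.133% and 0.197% in control libraries. The 2 groups overlapped, and among the alternatives run its level was called only without deficient replicate 2, the lowest of its group (log2 1.004).

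The spread of usage was summarised per library. The effective number of segments, the exponential of the Shannon entropy of the shares, was 52.3 ± 0.35 in deficient MZ, 53.6 ± 0.94 in control MZ and 55.9 ± 0.31 in FO cells. The 2 MZ groups overlapped only just, at 52.78 in deficient replicate 2 and 52.71 in control replicate 3. Deficient minus control was -1.33, with -1.64 to -0.94 when a library was left out. The FO libraries (55.5 to 56.2) lay above the control MZ libraries (52.7 to 54.8). The 10 most used segments took 40.4% to 41.6% in deficient libraries, 38.8% to 40.4% in control MZ and 39.0% to 39.5% in FO. Deficient and control libraries only just missed each other, at 40.45% and 40.43%. The summed absolute difference in shares divided by 2 gives the percentage of usage that would have to move to turn 1 library into another. It was 5.19% to 7.01% between deficient and control MZ libraries (median 5.87%), 4.01% to 7.97% within control MZ and 4.02% to 6.48% within deficient MZ. Between control MZ and FO libraries it was 22.5% to 25.6% (median 24.0%), against 2.58% to 6.68% within FO. The range between deficient and control MZ libraries thus lay inside the range within control MZ, and every distance between control MZ and FO lay above every distance within a group. Across the 100 segments, log2 shares (with 0.01 percentage points added) of 2 MZ libraries correlated at r = 0.977 to 0.991, and those of a control MZ and an FO library at 0.901 to 0.927. The points of each pair share their 2 libraries and segments are not replicates.

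**Figure D2:**
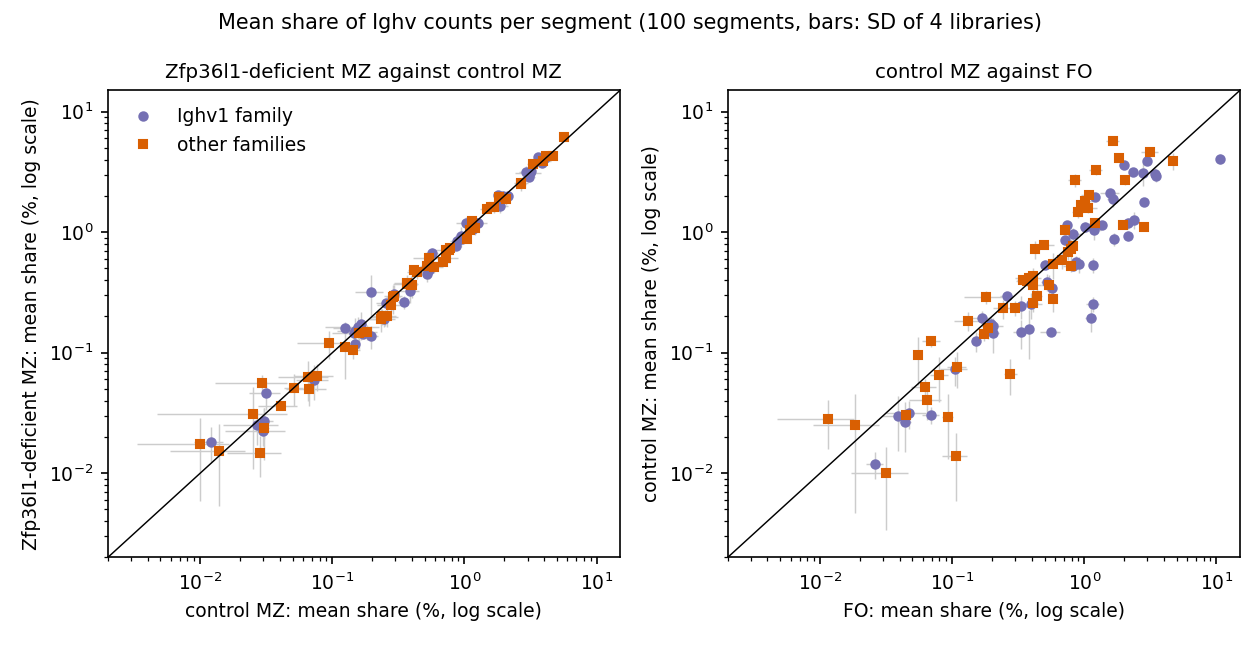
Mean share of Ighv counts per segment (100 points a panel, %, log scales), deficient against control MZ on the left and control MZ against FO on the right, with bars for the SD over 4 libraries and a line of equality. Points hug the line on the left, where no member was called, and spread around it on the right, where 24 members had a higher and 34 a lower usage in MZ.

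Control MZ and FO cells were then compared. In level, 86 of the 98 members tested were lower in control MZ, 3 were higher and 9 were not called. The background was dense: 81.3% of all 13843 genes were called, 42.6% higher and 38.7% lower. The median log2 difference was -1.28 for the members and 0.05 for all genes. The 3 segments with a higher level in MZ were Ighv6-3 (log2 0.70, SE 0.11, adjusted p = 7.9e-05), Ighv7-3 (0.61, SE 0.14, adjusted p = 0.0015) and Ighv10-1 (0.36, SE 0.13, adjusted p = 0.028). The call of Ighv10-1 was lost without control replicate 5 or 6, without FO replicate 3, 7 or 8 and with no filter on low counts, where the log2 difference was 0.26 to 0.33.

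In usage, which removes the difference in the total, 24 members were higher in control MZ, 34 were lower and 40 were not called. In that fit 81.1% of all genes were called, 42.7% higher and 38.4% lower. The members tested include Ighv1-62-3 and Ighv8-6, which passed the count rule only or mainly through FO libraries. A lower level or usage of these segments in MZ is not a result. The usage difference was at least 1 in absolute log2 for 19 members, and the shares of the 2 groups did not overlap for 54, of which 22 were higher and 32 lower in MZ. How many of all genes reach either of these limits was not computed, so neither count is a result about the members. A higher usage in MZ cells often went with a lower level there: Ighv3-6, Ighv1-64, Ighv1-53 and Ighv1-55 were called lower in level and higher in usage. The level call of Ighv1-53 (log2 -0.22, adjusted p = 0.045) was lost without control replicate 3, 4 or 6 or FO replicate 3 or 4 (log2 -0.14 to -0.23). The 2 members not tested were Ighv8-4 and Ighv6-5.

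Ighv6-3 had the largest gain. Its share was 5.71%, 5.51%, 5.54% and 5.92% in control replicates 3, 4, 5 and 6, and 1.73%, 1.85%, 1.47% and 1.53% in FO replicates 3, 4, 7 and 8. In deficient MZ cells it was 5.75%, 6.11%, 6.05% and 6.77%. It ranked 1st among segments in both MZ groups and 20th in FO, with a control share 3.44-fold that in FO (usage log2 1.78, SE 0.07, adjusted p = 1.1e-10). Ighv6-6, its relative with 18 differing bases in the runs above, took 1.81 ± 0.15% in control MZ and 1.02 ± 0.14% in FO (usage log2 0.83, SE 0.10, adjusted p = 5.9e-06).

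Ighv7-3 took 2.25%, 2.63%, 3.06% and 2.83% in control MZ and 0.982%, 0.755%, 0.800% and 0.840% in FO libraries. The lowest MZ library lay well above the highest FO library, and usage was 3.19-fold higher by mean share (log2 1.67, SE 0.11, adjusted p = 8.0e-09). Ighv10-1 took 3.02%, 2.98%, 3.58% and 3.58% in control MZ and 1.05%, 1.40%, 1.22% and 1.24% in FO libraries (usage log2 1.43, SE 0.10, adjusted p = 1.3e-08). Its near copy Ighv10-3 also rose in usage, from 1.08 ± 0.14% in FO to 2.05 ± 0.16% in control MZ (usage log2 0.92, SE 0.10). Ighv5-17, whose level was not called (log2 0.11, adjusted p = 0.172), took 4.14 ± 0.095% of usage in control MZ and 1.82 ± 0.075% in FO (log2 1.18, SE 0.06). Ighv1-53 took 3.60 ± 0.16% and 1.98 ± 0.14% (usage log2 0.86, SE 0.07, adjusted p = 4.7e-08).

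Ighv1-26, whose counts are among the uncertain ones, was the main segment of FO cells. It took 10.4%, 11.1%, 10.5% and 10.3% of Ighv counts in FO replicates 3, 4, 7 and 8, and 4.55%, 4.09%, 3.79% and 3.72% in control MZ replicates 3, 4, 5 and 6. The deficient libraries held 3.91%, 4.33%, 4.14% and 4.20%, inside the range of the controls. Every FO library lay far above every MZ library. The FO share was 2.62-fold the control MZ share (usage log2 -1.39, SE 0.06, adjusted p = 2.9e-10), and the next FO segment, Ighv9-3, took 4.73 ± 0.15%. In level Ighv1-26 fell from 207 ± 19 CPM in FO to 37.3 ± 2.3 CPM in control MZ.

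Where the mean log2 CPM was 3 or more, the largest losses in usage were those of Ighv1-5 and Ighv1-7. Ighv1-5 took 1.19%, 1.03%, 1.03% and 1.22% in FO libraries and 0.249%, 0.203%, 0.133% and 0.197% in control MZ, a 5.70-fold higher share in FO (usage log2 -2.52, SE 0.15, adjusted p = 5.0e-09). Ighv1-7 took 1.16 ± 0.14% in FO and 0.254 ± 0.038% in control MZ (usage log2 -2.20, SE 0.13). Beside Ighv1-26, Ighv8-8 was also lower, with 2.83 ± 0.045% in FO and 1.11 ± 0.076% in control MZ (usage log2 -1.35, SE 0.06). Ighv1-19, Ighv1-42, Ighv1-81 and Ighv1-18 had usage differences of -1.19, -1.13, -0.94 and -0.92, each called and with groups that did not overlap. Ighv15-2, a weaker segment named after its values were seen, took 0.067 ± 0.022% in control MZ and 0.276 ± 0.031% in FO and was also lower in MZ usage (log2 -2.05). Ighv1-62-3 passed the count rule through FO libraries alone and Ighv8-6 through FO and 1 deficient library, so their lower usage in MZ is not a result.

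Of the other segments with large shares, Ighv9-3 (usage log2 -0.28, adjusted p = 0.024) and Ighv1-82 (-0.25, adjusted p = 0.013) were lower in MZ, and Ighv3-6 (0.55), Ighv1-64 (0.38) and Ighv1-55 (0.45) were higher. With only fully unique segments in the numerator and total, the share difference of Ighv9-3 went from -0.82 to -1.71 percentage points and that of Ighv1-82 from -0.56 to -1.19. The call of Ighv9-3 was lost without FO replicate 8 (log2 -0.26). Ighv1-9 (-0.17, adjusted p = 0.053) and Ighv1-80 (0.18, adjusted p = 0.401) were not called. Without control replicate 3 or 4 or FO replicate 4, Ighv1-9 passed (log2 -0.20 to -0.22). For Ighv1-80 the control libraries alone ranged from 2.40% to 3.79%.

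Segments known from B-1 cells took small shares in all 3 groups. Ighv11-2 and Ighv12-3 encode phosphatidylcholine-binding receptors of B-1 cells, the innate-like B cells of body cavities. Ighv11-2 took 0.124 ± 0.013% in control MZ, 0.112 ± 0.052% in deficient MZ and 0.070 ± 0.011% in FO cells. Its usage was higher in control MZ than in FO (log2 0.83, SE 0.22, adjusted p = 0.0034), while its level was not called. Ighv12-3 took 0.144 ± 0.019%, 0.106 ± 0.017% and 0.174 ± 0.019%, and its usage did not pass between control MZ and FO (-0.28, adjusted p = 0.171). The summed level of 9 B-1 genes was 604 to 763 CPM in control MZ and 112 to 152 CPM in FO. Of its 8 tested genes 5 were higher and 2 lower in control MZ, where 42.6% of all genes were higher and 38.7% lower. Fcrl5 (log2 3.92) and Ptpn22 (2.71), both among the 5 higher, led the calls. Because 2 called genes of the list went the other way, its sum is not read as B-1 cell content. Cd5, the surface protein that defines B-1a cells, stood at 4.09 CPM in control MZ and 0.982 CPM in FO. The part of such cells in the usage of Ighv11-2 was not tested.

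Ighv7-1, the segment of the dominant antibodies against phosphorylcholine, took 0.233 ± 0.043% in control MZ, 0.190 ± 0.042% in deficient MZ and 0.242 ± 0.040% in FO cells, and usage did not pass (log2 -0.05, SE 0.18, adjusted p = 0.804). Its family member Ighv7-3 had a usage difference of 1.67, and the 2 segments were not tested against each other. Ighv5-2, the functional segment nearest to the D segments, took 0.400 ± 0.025% in control MZ and 0.341 ± 0.030% in FO (usage log2 0.23, SE 0.13, adjusted p = 0.106). Ighv2-2, the next segment in the locus, took 1.19 ± 0.032% and 1.21 ± 0.051% (usage log2 -0.02, SE 0.07, adjusted p = 0.790). Ighv1-72 was lower in MZ usage (1.14 ± 0.019% and 1.37 ± 0.12%, log2 -0.26, adjusted p = 0.0086). Its exon is 99.2% identical to that of Ighv1-62-3 and only 57.2% of its stretches are unique, so its counts are uncertain.

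By family, Ighv1 took 61.3 ± 1.0% of Ighv counts in FO, 49.4 ± 2.0% in control MZ and 49.7 ± 1.1% in deficient MZ cells. The Ighv8 family was also smaller in MZ, at 2.77 ± 0.13% in control MZ and 5.37 ± 0.17% in FO, a difference of -2.60 percentage points that was -1.48 with fully unique segments only. Against these, Ighv5 took 12.7 ± 0.68% in control MZ and 7.70 ± 0.30% in FO, and Ighv6 took 7.53 ± 0.29% and 2.69 ± 0.32%. Ighv10 took 5.34 ± 0.49% and 2.31 ± 0.27%, and Ighv7 3.02 ± 0.39% and 1.14 ± 0.077%. In each of these 6 families the 4 control MZ libraries did not overlap the 4 FO libraries, and the deficient libraries overlapped the controls. Ighv9, Ighv12, Ighv13 and Ighv14 overlapped between control MZ and FO. Ighv13, with 1 member, was the family whose shares did not overlap between deficient and control MZ.

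The calls followed the family in some cases and split it in others. In usage, 6 of the 9 tested Ighv5 members were higher in control MZ and 0 lower, and both tested members of Ighv6 and both of Ighv10 were higher. In level, however, 6 of those 9 Ighv5 members were called lower and 0 higher, so the direction of this family turns with the scaling. Of the 48 Ighv1 members, 23 were lower and 7 higher in usage, and all 48 were lower in level. Of the 6 Ighv8 members tested, 3 were lower and 1 higher in usage. Ighv1-62-3 and Ighv8-6 are among the members tested here, and a lower level or usage of either in MZ is not a result.

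**Figure D3:**
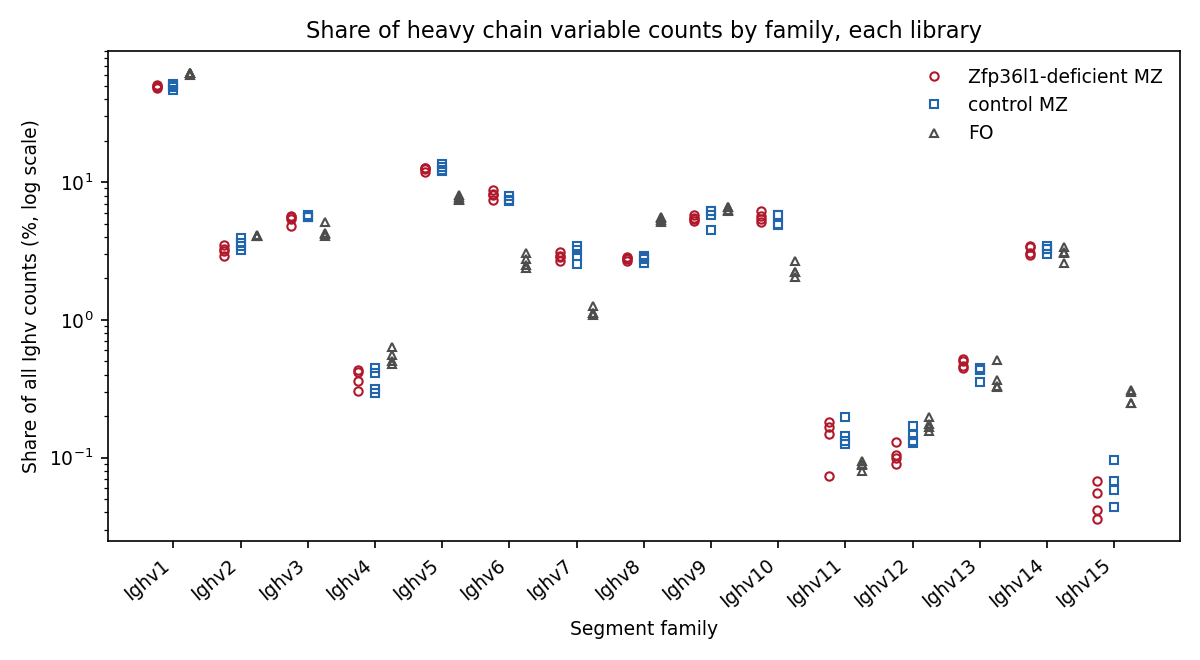
Share of all Ighv counts (%, log scale, y axis) for the 15 families with members (x axis), with 1 point per library and 4 libraries per group. Ighv6, Ighv7 and Ighv10 stand lower in FO than in both MZ groups, and Ighv1, Ighv8 and Ighv15 stand higher.

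Usage was also read along the locus. The count-weighted mean distance from the J segments was 1.27 ± 0.027 Mb in control MZ, 1.28 ± 0.011 Mb in deficient MZ and 1.37 ± 0.019 Mb in FO cells, and control MZ and FO libraries did not overlap. Split into 4 runs of 25 members, the run nearest to J (0.15 to 0.63 Mb) took 20.3 ± 1.2% in control MZ and 15.5 ± 0.25% in FO. The second run took 31.3 ± 0.93% and 24.2 ± 1.1%, the third (1.18 to 1.76 Mb) 21.4 ± 0.65% and 30.9 ± 0.24%, and the farthest 27.0 ± 1.1% and 29.3 ± 1.4%. The groups overlapped in the farthest run alone. Ighv1-26 lies in the third run, and without it that run took 17.4 ± 0.28% in control MZ and 20.3 ± 0.27% in FO, so this 1 segment carried most of the difference.

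Ighv1 members were then divided by distance from J, with limits of 1.5 and 2.0 Mb chosen after the values were seen. The 18 members nearest to J (Ighv1-4 to Ighv1-39) took 29.9 ± 0.32% in FO, 15.9 ± 0.82% in control MZ and 15.9 ± 0.16% in deficient MZ cells. The 13 members between these limits (Ighv1-42 to Ighv1-61) took 11.2 ± 0.28% in FO and 14.1 ± 0.45% in control MZ. The 17 farthest members took 20.2 ± 1.1% and 19.4 ± 0.94%, and overlapped. Without Ighv1-26 the near members took 19.4 ± 0.19% in FO and 11.9 ± 0.45% in control MZ, still with no overlap.

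Around 1.1 Mb, segments of different families lay side by side with opposite differences, a stretch chosen after its values were seen. Ighv10-1, at 1.05 Mb, and Ighv10-3, at 1.09 Mb, were higher in MZ usage (log2 1.43 and 0.92). Ighv1-4 and Ighv1-5, which lie between them at 1.06 and 1.08 Mb, were lower (-1.91 and -2.52), as was Ighv1-7 beyond them at 1.11 Mb (-2.20). Over the 98 tested members the usage difference correlated only weakly with the GC content of the exon (r = -0.13), its length (0.10), the percentage of unique stretches (0.08) and the distance from J (-0.20). Within Ighv1 the values for GC content and distance were 0.35 and 0.41 (48 segments), and among the 50 others they had the opposite sign (-0.24 and -0.31). With the mean share it was 0.32 over all 98. These are descriptions over segments of the same libraries.

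**Figure D4:**
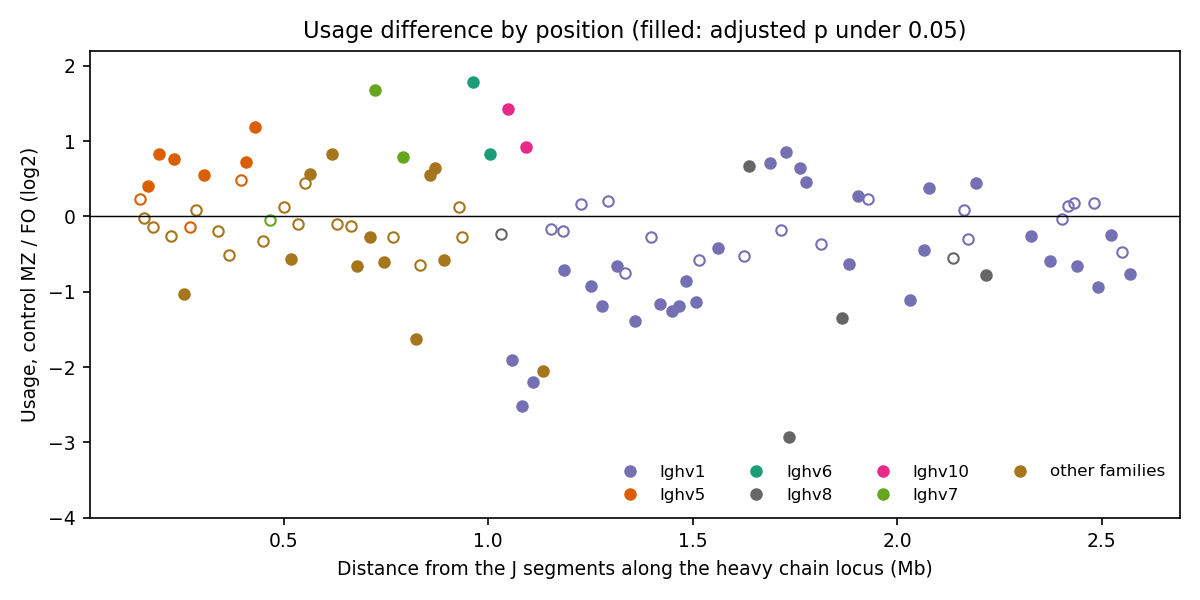
Usage difference, control MZ over FO (log2, y axis), against distance from the J segments (Mb, x axis) for the 98 tested members, coloured by family, with filled points for adjusted p under 0.05. Ighv10 members (1.43 and 0.92) stand beside Ighv1 members at -1.91 to -2.52 near 1.1 Mb, and the Ighv1 members below 1.5 Mb lie mostly under 0.

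Genes that rearrange, transcribe or partner the heavy chain were read from 3 lists. Of 17 rearrangement and joining genes, Rag2 was at 0 in every library, and Rag1, Rag2 and Dntt, which cut the segments and add bases at their joints, were too low to test. Among the 14 tested, 3 were higher and 6 lower in control MZ than in FO, where 42.6% of all genes were higher and 38.7% lower, so the list does not stand out. Lower were Hmgb1, a cofactor of the RAG recombinase (log2 -0.95, SE 0.06), Polm, a polymerase that fills ends (-1.01, SE 0.06), the kinase Atm (-1.38, SE 0.09) and the break sensor Trp53bp1 (-0.85, SE 0.06). The median of the list was -0.17, against 0.05 for all genes. In deficient against control MZ cells only Polm was called (log2 -0.42, SE 0.08, edgeR adjusted p = 0.011), beside 3.76% of all genes.

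Of 17 genes for transcription and folding of the locus, 13 were lower and 2 higher in control MZ than in FO (median log2 -0.63), where 38.7% of all genes were lower and 42.6% higher (median 0.05). Lower were Rad21, a cohesin subunit (-2.18, SE 0.06), Yy1, which acts in locus contraction (-2.27, SE 0.07), Ikzf3 (-1.57, SE 0.05) and Pou2f2, which binds the octamer of V promoters (-1.36, SE 0.07). Pax5, needed for contraction of the locus in progenitors, stood at 41.5 CPM in control MZ and 258 CPM in FO (log2 -2.64, SE 0.17). In deficient against control MZ cells Pou2f2 (log2 0.41, SE 0.07) and Irf8 (0.37, SE 0.07) were higher and Irf4 (-0.52, SE 0.07) lower, where 3.76% of all genes were called. Any link of these genes to V segment usage was not tested.

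Of 13 receptor partners 8 were tested, and 6 were higher and 2 lower in control MZ than in FO (median log2 0.41), where 81.3% of all genes were called in either direction. Ighm (0.56, SE 0.08), Igkc (0.63, SE 0.07) and Iglc2 (0.60, SE 0.09), constant regions of the heavy and light chains, were higher where most V segments were lower in level. Ighd was lower (-2.46, SE 0.10), as was Vpreb3 (-2.14, SE 0.25). Between deficient and control MZ cells no partner was called (0), beside 3.76% of all genes, with Ighm at a log2 difference of 0.02 (SE 0.09).

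Plasma cells hold far more immunoglobulin RNA than resting B cells, so their markers were read beside the totals. The summed level of 9 plasma cell genes was 967 to 1115 CPM in control MZ and 540 to 556 CPM in FO. Of the 7 tested genes 3 were higher and 4 lower in MZ, where 42.6% of all genes were higher and 38.7% lower. Mzb1 (log2 1.90) and Prdm1 (2.69) were higher, while Sdc1 (0.788 CPM in control MZ, 10.2 in FO) and Jchain (1.14 and 5.51 CPM) were lower. Because the list went both ways, its sum is not read as plasma cell content. The germinal centre list, led by Bcl6, summed to 44.7 to 46.8 CPM in control MZ and 203 to 215 CPM in FO. Of its 8 tested genes 1 was higher and 6 were lower in control MZ, beside the same shares of all genes. The part of these cells in the segment values was not tested.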

How the data were processed

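RNA was measured in 12 libraries of sorted mouse splenic B cells. The deposited raw counts are whole numbers of reads per Ensembl gene and library. The tools named in the submitters' processing notes are Trim Galore, HTSeq, TopHat2 2.0.12 and DESeq2 1.10.1, with GRCm38 as build. Counting mode, strand setting, annotation release and handling of reads with several matches were not given in the sources used here. Log2 fold changes and adjusted p-values of the authors, from their deposited result tables, are printed only where those tables are named. Symbols, biotypes, coordinates and exon sequences came from GENCODE M21 (Ensembl 96), which matched 42462 of 43629 gene IDs.

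Counts were tested with edgeR 4.0.16 (R 4.3.3; TMM scaling, default filter on low counts, robust quasi-likelihood fit, Benjamini-Hochberg adjustment over all genes), separately for the 8 libraries of each comparison. CPM values are TMM-scaled within a comparison, except those of Zfp36l1. The usage fit gave Ighv rows the log of the library's Ighv total as offset. The level fit, without the filter on low counts, was tested on simulated data, and the usage fit was not. Alternatives were DESeq2 1.42.0, other scalings, filters and denominators, a replicate block and leaving out each library. The members, lists and tests were chosen with earlier results of these data known. Named are the 12 segments with the largest shares, up to 8 called changes per direction whose mean log2 CPM was 3 or more with groups that do not overlap, 7 fixed segments, those at the threshold and up to 4 called genes per list. Segments and genes outside this rule (Ighv10-3, Ighv1-4, Pax5, Cd5, Sdc1, Jchain, Vpreb3) were added after their values were seen. No 2 libraries were identical, and the precision of each share is limited by 30926 to 69258 Ighv counts per library.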

Additional observations from a re-analysis of the deposited data

Results flagged for a closer look

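In each group of 4 libraries the highest and the lowest value were set against the gap to the nearest other library, for the named segments, the families and the totals. Of 141 such groups, 5 held a library whose gap, as a share of the group's range, exceeded Dixon's 95% critical value. Chance alone flags about 1 in 20 groups. FO replicate 4 accounts for 4 of the 5. In it Ighv1-26 took 11.1% of Ighv counts, against 10.3% to 10.5% in the other FO libraries, and Ighv7-1 took 0.302%, against 0.219% to 0.228%. The whole Ighv1 family took 59.8% there, against 61.7% to 62.0%, and the count-weighted mean distance from J was 1.34 Mb, against 1.37 to 1.38 Mb. Without FO replicate 4 the usage difference of Ighv1-26 between control MZ and FO was -1.37 (log2), against -1.39 with it. The fifth was the Ighv3 family in control MZ replicate 5, at 5.75% against 5.55% to 5.57% in the other controls.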

How the results depend on the processing

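Between deficient and control MZ cells, 0 members were called with edgeR under TMM scaling, DESeq2 size factors, scaling by the Ighv total, no filter or a fit of all 12 libraries, and 1 with DESeq2 (Ighv1-53). Leaving out each library in turn gave 0 to 1. In usage it gave 0 each time. Between control MZ and FO, 89 members were called in level, 89 to 90 under the other tools, filters and fits, 85 to 89 when a library was left out, and 58 with the Ighv rows scaled by the Ighv total (54 to 63 when a library was left out). That scaling turned the direction of Ighv3-6 (to 0.55), Ighv1-64 (0.38), Ighv1-53 (0.86), Ighv1-80 (0.18), Ighv1-55 (0.45) and Ighv5-2 (0.23), which follows from its construction, since it removes the lower Ighv total of MZ cells. The difference in the Ighv total, control MZ minus FO, was -0.0708% of library counts and -0.108% with TMM-scaled libraries. The effective number of segments differed by -2.23 (control MZ minus FO), with -2.75 to -1.92 over all alternatives. Family shares kept their direction with only fully unique segments for Ighv1 (-14.4 percentage points), Ighv8 (-1.48), Ighv5 (5.70), Ighv6 (6.15), Ighv7 (2.38) and Ighv10 (3.77). Ighv4 and Ighv11 had no fully unique segment and no value there, and the setting of at least 50% unique stretches removed no member. The choices of fully unique segments, counts per base, usage without each library and position without Ighv1-26 were made after seeing the data.

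Replicate numbers 3 and 4 occur in control MZ and FO, from mice of different genotypes, and same-numbered libraries did not deviate together (r = -0.057 and -0.14 over 9703 genes), so the numbers do not pair the samples. With the replicate block 91 members were called in level, without Ighv10-1 (log2 0.06) and Ighv7-3 (0.25) and with Ighv6-6 (-0.57).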
